A study of Mus musculus with 20 samples.

Results

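Leukocytes leave the blood by binding adhesion molecules on the inner face of vessels, and 7 genes of that family or of the same cells were followed here in mouse lung after organic dust: Sele (E-selectin), Vcam1, Icam1, Icam2, Pecam1 (CD31), Cdh5 (VE-cadherin) and Cd34. They were chosen by name among the 547 endogenous probes of the NanoString mouse Immunology panel, and all 7 were on it. E-selectin slows passing leukocytes by binding their surface sugars. Vcam1 and Icam1 then hold them through the integrins VLA-4 and LFA-1, and the endothelium makes more of these 3 molecules when cytokines such as TNF or IL-1 act through NF-κB. Icam2, Pecam1 and VE-cadherin sit at endothelial surfaces and junctions in the resting vessel, and Cd34 is a sialomucin of capillary endothelium and of blood progenitors. Icam1 and Vcam1 are also made by other lung cells, and Pecam1 by leukocytes and platelets.

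The RNA came from left lungs of 20 male C57BL/6J mice that were bought at 5 to 8 weeks of age and fed a DHA diet or a control diet for 4 weeks. The DHA diet was an AIN-93G base in which algal DHA oil and high-oleic safflower oil stood in for soybean oil, and the control diet held high-oleic safflower oil and no DHA. Each mouse then received a single intranasal instillation of 50 µL, either 12.5% HDE (an extract of settled dust from hog confinement barns) or saline, and lungs were taken 5 h later. HDE was given to 7 mice of the DHA diet and 6 of the control diet, and saline to 3 of the DHA diet and 4 of the control diet. Each mouse was 1 sample, the lungs came from several experimental trials that the labels do not assign to mice, and all lungs were whole tissue. In whole tissue, fewer endothelial cells and less RNA per endothelial cell cannot be told apart.

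Lanes held 123536 to 684074 endogenous counts, and each lane was scaled by Oaz1, Ppia, Rpl19 and Eef1g, taking their geometric mean (scaled counts). The sample titles place the lanes in 2 sets of 10, each with its own date and number and about a year apart, with all 4 groups in each set. They are called run 1 and run 2 here, and the labels do not say what else differed between them. None of the 10 other endothelial markers listed (Tek, Kdr, Vwf and others) was on the panel. Among mice on the control diet with HDE, mouse 6 stood apart. Its summed neutrophil markers were 875.6 scaled counts, under the saline range of 1493 to 4934, and its summed inducers of endothelial adhesion molecules were 3637, inside the saline range of 3279 to 5665. Mouse 3 of the same group had 10650 summed scaled counts of thymocyte markers, against 277.1 to 362.1 in saline mice. Results are given with all mice, and without these mice where that bears on them.

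Promoter windows in the RefSeq table (mouse build GRCm38.p6) were found for 3 of the 7 genes, and the 250 bases before the annotated start of each are printed here. All 3 genes are on the plus strand. The Sele window is chr1:164047984-164048233, the Icam1 window chr9:21015690-21015939 and the Cd34 window chr1:194938571-194938820. Capitals mark matches to GGANATTCC, to the AP-1 motif TGANTCA and to the TATA box TATAAA, searched on both strands.
Sele: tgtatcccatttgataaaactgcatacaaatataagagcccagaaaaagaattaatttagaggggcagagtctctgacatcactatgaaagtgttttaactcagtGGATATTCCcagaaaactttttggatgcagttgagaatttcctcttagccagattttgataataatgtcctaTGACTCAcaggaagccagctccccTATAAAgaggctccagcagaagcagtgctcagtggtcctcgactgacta
Icam1: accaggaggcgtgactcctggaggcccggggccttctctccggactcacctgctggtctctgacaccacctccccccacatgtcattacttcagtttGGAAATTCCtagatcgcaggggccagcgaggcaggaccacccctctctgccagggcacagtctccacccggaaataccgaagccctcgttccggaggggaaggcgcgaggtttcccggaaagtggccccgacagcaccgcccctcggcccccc
Cd34: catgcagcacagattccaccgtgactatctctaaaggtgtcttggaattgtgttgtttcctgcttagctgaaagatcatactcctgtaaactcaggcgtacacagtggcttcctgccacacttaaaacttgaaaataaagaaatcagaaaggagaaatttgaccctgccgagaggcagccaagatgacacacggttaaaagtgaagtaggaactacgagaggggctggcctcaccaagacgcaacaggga

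The Sele window held GGATATTCC 137 bases before the start, TGACTCA 67 bases before it and TATAAA 44 bases before it. The Icam1 window held GGAAATTCC 145 bases before the start, and the Cd34 window held none of these motifs. The letters GGANATTCC were chosen after these windows had been seen, and they occurred in 0.819% of 32851 windows of the same length. TGANTCA occurred in 6.75% and TATAAA in 12.4% of those windows. The longer NF-κB consensus, which begins with GGG, matched none of the 3 windows and 7.25% of all windows. A match is a match of letters only, and no binding was measured in these lungs.

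The 3 cytokine-inducible molecules were higher after HDE, and none of the 4 constitutive endothelial genes changed past the test with the housekeeping genes as scale, while all 4 were called lower with TMM scaling. Over 20 mice, with diet in the model, Sele was 7.42-fold higher after HDE than after saline (95% interval 3.44 to 16.0), Vcam1 3.38-fold (1.95 to 5.85) and Icam1 2.51-fold (1.46 to 4.32). Icam2, Pecam1, Cdh5 and Cd34 had fitted ratios of 0.705, 0.862, 0.833 and 0.978, and none passed the test. All 7 genes passed the minimum mean of 82 scaled counts. By edgeR's quasi-likelihood test at a Benjamini-Hochberg adjusted p of 0.05, 3 of 7 were higher and 0 of 7 lower, where 42.5% of the 358 tested genes were higher and 5.03% were lower. The share of members that rose was thus near that of the panel, and the median log2 fold change was -0.03 over the 7 genes and 0.47 over all tested genes.

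**Figure D1:**
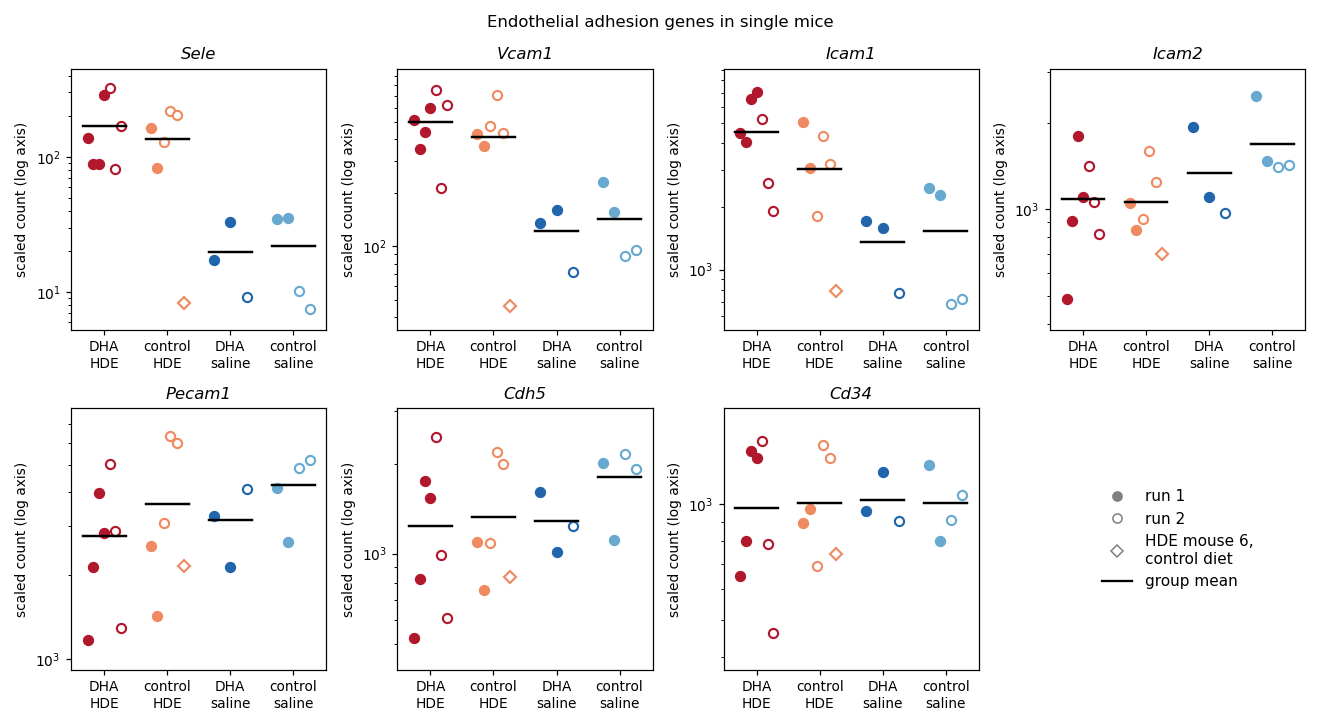
Scaled counts (vertical log axis) of the 7 genes in each of 20 mice, by diet and exposure on the horizontal axis; filled points are run 1, open points run 2, the diamond is mouse 6 of the control diet with HDE, and bars are group means. Sele, Vcam1 and Icam1 lie higher in HDE mice than in saline mice apart from that mouse and a few others, while the other 4 genes overlap between exposures.

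E-selectin had the steepest rise. On the DHA diet with HDE the lowest Sele value was 81.7 scaled counts, the median 138 and the highest 325, and on the control diet with HDE they were 8.25, 147 and 220. Saline mice had 17.2, 32.9 and 9.15 on the DHA diet and 34.6, 35.2, 10.2 and 7.46 on the control diet. All HDE mice but mouse 6 of the control diet, 12 of 13, exceeded the highest saline mouse. At least 12 of 13 did so for 20.7% of tested genes, and among the 7 genes Sele was the only one. The log2 fold change was 2.89 (SE 0.53, edgeR adjusted p = 1.96e-04), and without mouse 6 it was 3.05 (SE 0.41, adjusted p = 2.73e-06).

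The resting level of Sele could not be told from the background of the assay. Raw Sele counts were 21 to 478 in HDE mice and 13 to 34 in saline mice. The mean plus 2 SD of the 8 negative-control probes of a lane, 16.6 to 40.9 over the 20 lanes, was passed in 11 of 13 HDE mice and in 1 of 7 saline mice. Beside mouse 6, the HDE mouse that missed it was mouse 2 of the control diet, with a raw count of 31 against a limit of 36.65 in a lane of 129599 total counts. With that background subtracted, the mean of Sele fell under the minimum and it was not tested, so the 7.42-fold value is a ratio to a level at background.

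**Figure D2:**
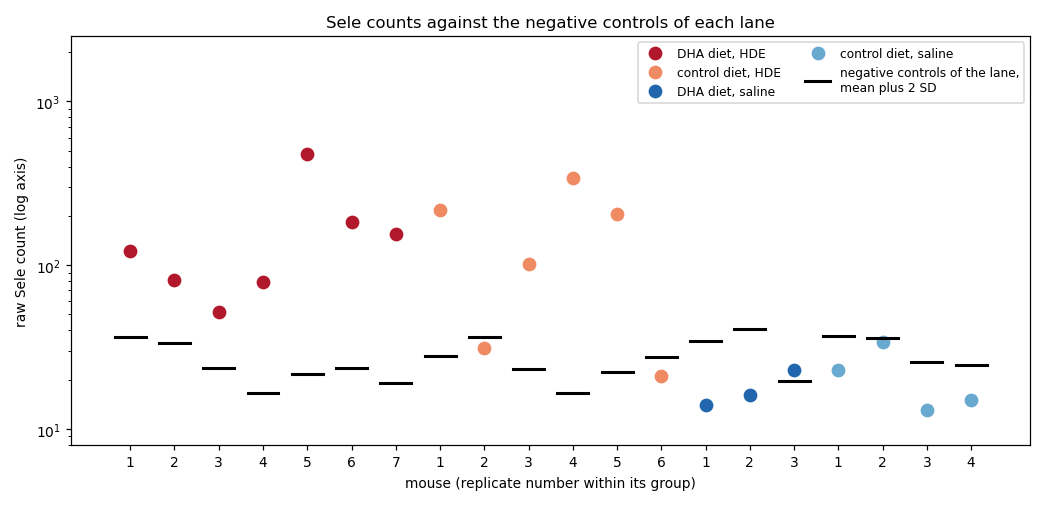
Raw Sele counts (vertical log axis) in each of 20 mice (horizontal axis, replicate numbers within a group), coloured by group, with the limit from the negative controls of the same lane (mean plus 2 SD) as a bar. The point lies above its bar in 11 of 13 HDE mice and in 1 of 7 saline mice.

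Vcam1, the ligand of VLA-4 on monocytes, lymphocytes and eosinophils, followed Sele closely. Its lowest, median and highest values were 212, 511 and 752 scaled counts on the DHA diet with HDE, and 46.0, 429 and 708 on the control diet with HDE. Saline mice had 135, 160 and 72.0 on the DHA diet and 230, 155, 87.9 and 95.5 on the control diet. Values above all 7 saline mice were found in 11 of 13 HDE mice, mouse 6 of the control diet lay below all of them, and the lowest mouse on the DHA diet lay inside the saline range. Mouse 6 was also below all saline mice in Icam2, Cdh5 and Cd34. Its ratio of Vcam1 to Cdh5 within the lane was 0.0549, inside the saline range of 0.0407 to 0.158. On the log2 scale the difference of Vcam1 between exposures was 1.76 (SE 0.38, edgeR adjusted p = 7.95e-04), and without mouse 6 it was 1.90 (SE 0.27, adjusted p = 6.03e-06). Vcam1 counts passed the negative-control limit in all 20 lanes.

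Icam1, the LFA-1 and Mac-1 ligand that stops neutrophils on the vessel wall, was abundant before exposure and rose less steeply. On the DHA diet with HDE the lowest, median and highest values were 1899, 4502 and 7047 scaled counts, and on the control diet with HDE they were 791, 3114 and 5054. Saline mice had 1715, 1581 and 770 on the DHA diet and 2445, 2273, 683 and 721 on the control diet. Here 10 of 13 HDE mice exceeded all 7 saline mice, and the other 3 were inside the saline range. The fitted log2 fold change was 1.33 (SE 0.38, edgeR adjusted p = 0.00608), and without mouse 6 it was 1.45 (SE 0.33, adjusted p = 8.21e-04).

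Icam1 also differed between runs, which widened its saline range. It was lower in run 2 than in run 1 by a log2 difference of -0.999 (SE 0.28, adjusted p = 0.0251), in a comparison where 10.3% of tested genes were lower in run 2 and 0.559% higher, and no other member was called. In run 1 Icam1 was 3038 to 7047 in HDE mice and 1581 to 2445 in saline mice. In run 2 it was 791 to 5229 in HDE mice and 683 to 770 in saline mice. The share of all tested genes whose exposures do not overlap within a run was not counted, so these ranges have no panel share beside them. A fit with run as a block gave Icam1 1.58 on the log2 scale (SE 0.31, adjusted p = 3.22e-04). Within run 1 it was 1.32 (adjusted p = 0.00268) and within run 2 it was 1.93 (adjusted p = 0.0541). The share of tested genes called higher was 46.6% with the block, 42.8% within run 1 and 6.77% within run 2, where 7 HDE mice faced 3 saline mice.

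The same check was made for Vcam1 and Sele. Vcam1 was 1.84 with the block (adjusted p = 7.64e-04), 1.40 within run 1 (adjusted p = 4.77e-04) and 2.41 within run 2 (adjusted p = 0.0611). Sele was 3.02 with the block (adjusted p = 2.29e-04) and 4.13 within run 2 (adjusted p = 0.0369), and was not tested within run 1, because lanes are rescaled to the mice compared and its mean over these 10 lanes was then 64.2. With the genes that passed over 20 mice, a setting added after seeing the data in which 37.7% of tested genes were higher, Sele was 2.23 within run 1 (adjusted p = 0.00101). Saline Sele values were 17.2 to 35.2 in run 1 and 7.46 to 10.2 in run 2, and mean negative-control counts were 12.1 to 28.4 in run 1 and 9.5 to 16.5 in run 2. The part of background in this difference was not tested.

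The constitutive genes overlapped between exposures. Icam2, a second LFA-1 ligand that the resting endothelium carries, had lowest, median and highest values of 486, 1057 and 1805 scaled counts on the DHA diet with HDE, and of 700, 987 and 1592 on the control diet with HDE. Saline mice had 1933, 1105 and 973 on the DHA diet and 2474, 1466, 1397 and 1429 on the control diet. Among 13 HDE mice, 6 had less Icam2 than any saline mouse and none had more. At least 12 of 13 lay below every saline mouse for 1.96% of tested genes, and for none of the 7. Shares at other counts were not computed. The 6 of Icam2 thus has no panel share beside it, nor have such counts of the other members except Sele. The log2 fold change was -0.50 (SE 0.23, 95% interval -0.99 to -0.02), with an adjusted p of 0.0807 by edgeR. Its unadjusted p was under 0.05, as it was for 53.4% of tested genes in either direction.

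Pecam1, a junctional molecule through which leukocytes pass, spread widely within groups. Its lowest, median and highest values were 1172, 2846 and 5031 scaled counts on the DHA diet with HDE, and 1426, 2809 and 6357 on the control diet with HDE. Saline mice had 3276, 2135 and 4086 on the DHA diet and 4132, 2640, 4855 and 5205 on the control diet. Among 13 HDE mice, 2 had more Pecam1 than any saline mouse and 3 had less. Its log2 fold change was -0.21 (SE 0.30, 95% interval -0.86 to 0.43, adjusted p = 0.591).

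Cdh5, which holds endothelial cells to each other, had lowest, median and highest values of 520, 989 and 2466 scaled counts on the DHA diet with HDE, and of 755, 1090 and 2189 on the control diet with HDE. Saline mice had 1613, 1014 and 1237 on the DHA diet and 2012, 1108, 2159 and 1925 on the control diet. Its log2 fold change was -0.26 (SE 0.29, 95% interval -0.88 to 0.35, adjusted p = 0.492). Its coefficient of variation was 49.9% over 13 HDE mice and 29.5% over 7 saline mice, a difference that was not tested, and 2 HDE mice had more and 6 had less than any saline mouse.

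Cd34 averaged 990 ± 340 scaled counts in HDE mice and 1013 ± 169 in saline mice (SD, n = 13 and 7). The lowest, median and highest values were 463, 800 and 1451 on the DHA diet with HDE, and 688, 932 and 1423 on the control diet with HDE. Saline mice had 956, 1209 and 905 on the DHA diet and 1259, 803, 909 and 1052 on the control diet. HDE mice lay on both sides of this range, with 5 above and 6 below it. The log2 fold change was -0.03 (SE 0.22, 95% interval -0.48 to 0.42, adjusted p = 0.921). The fitted ratio of 0.978 had a 95% interval of 0.715 to 1.34.

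Whether the constitutive genes were lower depended on the scaling. TMM scaling, which centres the panel on its own middle, moved the median over all tested genes by -0.50 on the log2 scale, to -0.03. Icam2 was then -0.99 (SE 0.18, adjusted p = 2.28e-04), Cdh5 -0.83 (SE 0.24, adjusted p = 0.00641), Pecam1 -0.80 (SE 0.29, adjusted p = 0.0235) and Cd34 -0.56 (SE 0.16, adjusted p = 0.00754), so that all 4 were called lower. Sele (2.36, adjusted p = 1.80e-04), Vcam1 (1.22, adjusted p = 0.00137) and Icam1 (0.81, adjusted p = 0.0130) remained higher. Over the panel 106 genes were higher (29.6%) and 94 lower (26.3%) under TMM, against 152 higher and 18 lower with the housekeeping genes. Set against the median tested gene, Icam2 lay at -0.97 with the housekeeping genes and at -0.96 with TMM, and Cd34 at -0.50 and -0.52. Taking off the median centres the panel on its middle much as TMM does. The paired values were therefore bound to be close, and they do not show which scaling is right.

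**Figure D3:**
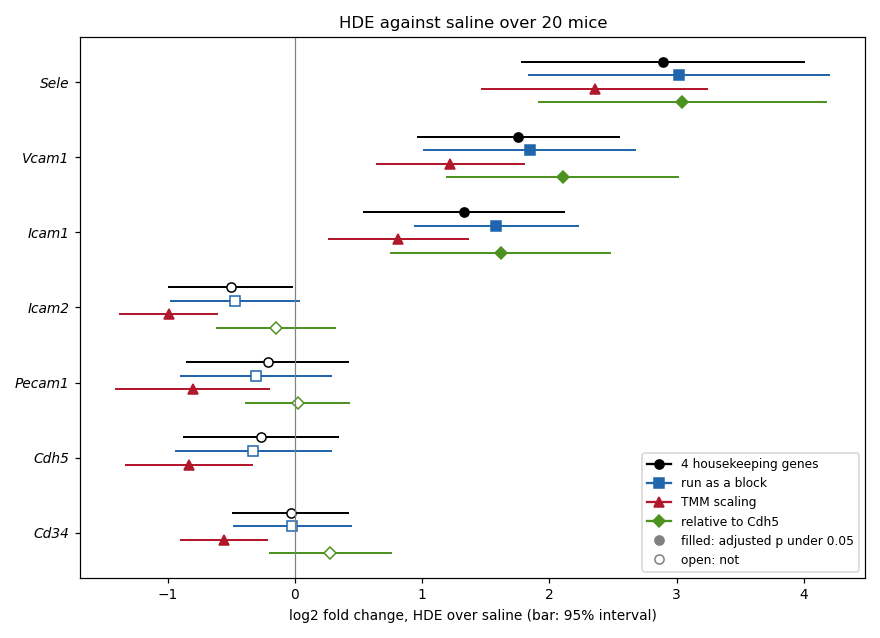
Log2 fold change of HDE over saline (horizontal axis, with 95% intervals) for the 7 genes (vertical axis) under 4 settings, named in the legend; filled symbols passed an adjusted p of 0.05. Sele, Vcam1 and Icam1 lie right of 0 under all 4, and the other genes pass the test only under TMM scaling, where all 4 are lower.

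A ratio to Cdh5 within the same lane needs no housekeeping gene. Scaled by Cdh5, Sele was higher after HDE by 3.05 (SE 0.55, adjusted p = 7.53e-05), Vcam1 by 2.10 (SE 0.44, adjusted p = 3.93e-04) and Icam1 by 1.62 (SE 0.42, adjusted p = 0.00221) on the log2 scale. On this scale 52.1% of 357 tested genes were higher and 0.28% lower, so that 3 of 6 members is again close to the share of the panel. Cd34 (0.28, SE 0.23), Icam2 (-0.15, SE 0.22) and Pecam1 (0.02, SE 0.20) were not called. The 95% interval of Pecam1 relative to Cdh5 ran from -0.39 to 0.43. The median ratio of scaled counts of Pecam1 to Cdh5 was 2.32 in HDE mice and 2.25 in saline mice, while that of Icam1 to Cdh5 was 3.13 in HDE mice and 1.06 in saline mice. The calls of Sele, Vcam1 and Icam1 held under all 22 alternatives run for this comparison. These were each mouse left out in turn, run as a block, and Pecam1 in place of Cdh5. Other tools, other filters, background subtraction and single runs were not tried for it.

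The exposure difference was then taken within each diet, in a model of the 4 groups. On the DHA diet Sele (log2 fold change 3.17, SE 0.83, adjusted p = 0.00753), Vcam1 (2.03, SE 0.58, adjusted p = 0.0126) and Icam1 (1.75, SE 0.56, adjusted p = 0.0237) were higher, and 30.4% of tested genes were higher and 1.68% lower. On the control diet Sele (2.67, SE 0.71, adjusted p = 0.0123) and Vcam1 (1.53, SE 0.51, adjusted p = 0.0357) were higher, Icam1 had 0.99 (SE 0.49, adjusted p = 0.138), and 25.1% of tested genes were higher and 0.838% lower. Icam1 on the control diet passed the test with run as a block (1.33, adjusted p = 0.0219) and without mouse 6 (1.19, adjusted p = 0.0370). None of the 3 calls on the DHA diet was kept without mouse 3 of the DHA diet with saline, the DHA saline mouse lowest in all 3 genes. The edgeR adjusted p was then 0.0635 for Sele, 0.0893 for Vcam1 and 0.135 for Icam1. Icam1 was also lost there without mouse 1 of that group (adjusted p = 0.0554). Genes called higher over the panel fell as well, from 109 of 358 to 46 of 352 without mouse 3 and to 60 of 357 without mouse 1. On the control diet the call of Sele was lost without mouse 3 (edgeR adjusted p = 0.0511) or mouse 4 (adjusted p = 0.0563) of the saline group. In these fits 34 of 358 and 33 of 355 tested genes were higher, against 90 of 358 with all mice. The call of Vcam1 was lost when an HDE mouse of that diet was left out, namely mouse 1 (adjusted p = 0.0503), 3 (0.0518) or 4 (0.0785), and when saline mouse 2 (0.0697), 3 (0.107) or 4 (0.108) was.

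That Icam1 passed on the DHA diet alone does not show that the diets differed. The interaction, the exposure difference on the DHA diet minus that on the control diet, was 0.76 for Icam1 (SE 0.71, 95% interval -0.71 to 2.23), 0.51 for Vcam1 (-0.98 to 1.996) and 0.50 for Sele (-1.55 to 2.55) on the log2 scale. Icam2 had 0.37, Cdh5 0.39, Pecam1 0.03 and Cd34 -0.07. None of the 358 tested genes was called by edgeR, all 7 adjusted p-values were 0.997, and 2.51% of tested genes had an unadjusted p under 0.05, none of them among the 7.

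Diet itself moved none of the 7 genes past the test. Over all 20 mice, DHA against control, Icam1 had a log2 fold change of 0.33 (SE 0.34), Sele 0.16 (SE 0.45), Vcam1 0.12 (SE 0.34), Cd34 -0.02 (SE 0.21), Icam2 -0.10 (SE 0.23), Cdh5 -0.23 (SE 0.28) and Pecam1 -0.39 (SE 0.29). None of the 358 tested genes was called, and 3.91% of them and 0 of the 7 had an unadjusted p under 0.05. Among the 13 HDE mice alone, Icam1 averaged 4554 ± 1908 scaled counts on the DHA diet and 3035 ± 1569 on the control diet (SD, n = 7 and 6), a log2 fold change of 0.58 (95% interval -0.28 to 1.45). Sele had 0.31 (-0.84 to 1.46), Vcam1 0.29 (-0.65 to 1.23) and Pecam1 -0.38 (-1.26 to 0.49). None of 357 tested genes was called there, and 4.76% had an unadjusted p under 0.05.

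After saline alone no member passed the test for diet either. Cdh5 averaged 1288 ± 303 scaled counts on the DHA diet and 1801 ± 472 on the control diet (SD, n = 3 and 4; log2 fold change -0.48, SE 0.48). Pecam1 had -0.41 (SE 0.51) and Icam2 -0.34 (SE 0.39), and the intervals of all 7 genes spanned 0. None of the 358 tested genes was called, and 0.279% had an unadjusted p under 0.05.

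**Figure D4:**
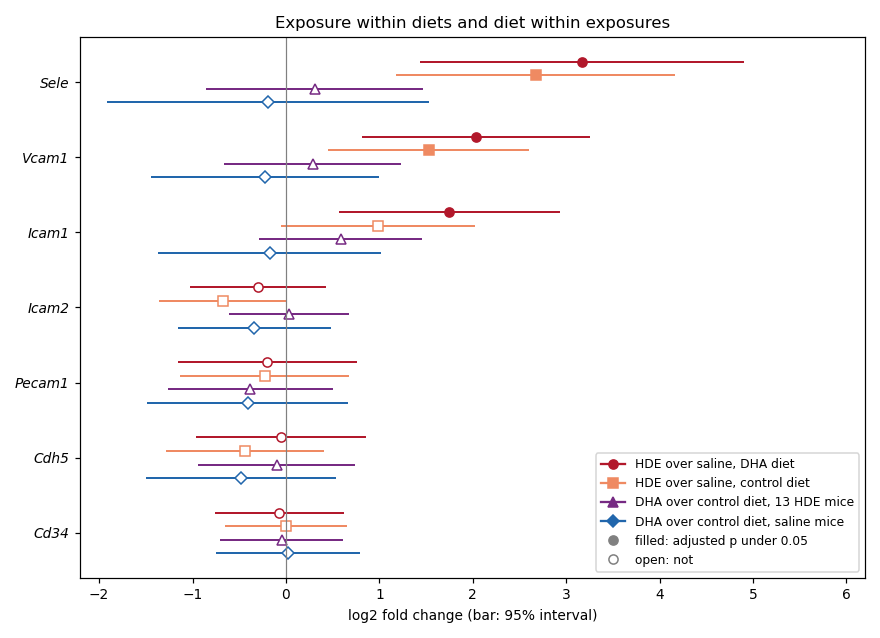
Log2 fold changes (horizontal axis, with 95% intervals) of the 7 genes (vertical axis) for HDE over saline on each diet and for the DHA over the control diet within each exposure, named in the legend; filled symbols passed an adjusted p of 0.05. Sele and Vcam1 pass for exposure on both diets and Icam1 on the DHA diet, and no diet comparison passes.

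Among mice of the same group the genes fell into the same sets. With group means removed, Sele and Vcam1 followed each other with a Pearson r of 0.94 on log2(scaled count + 1). Sele followed Icam1 with 0.76 and Vcam1 followed it with 0.73, or with 0.54 and 0.41 under TMM. Pecam1 and Cdh5 had an r of 0.94. The 6 pairs among Icam2, Pecam1, Cdh5 and Cd34 ran from 0.69 to 0.94, or from 0.54 to 0.95 under TMM. The 12 pairs across the sets ran from 0.16 to 0.60, and from -0.54 to 0.01 under TMM, so their sign depended on the scaling. All pairs rest on the same 20 lanes and share their scaling, and no test was made. Mouse 6 of the control diet with HDE is among these lanes, with 8.25 scaled counts of Sele and 46.0 of Vcam1. Mouse 2, the next lowest of its group in both genes, had 82.5 and 364. No r was computed without mouse 6, so the part of that mouse in these values was not tested.

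**Figure D5:**
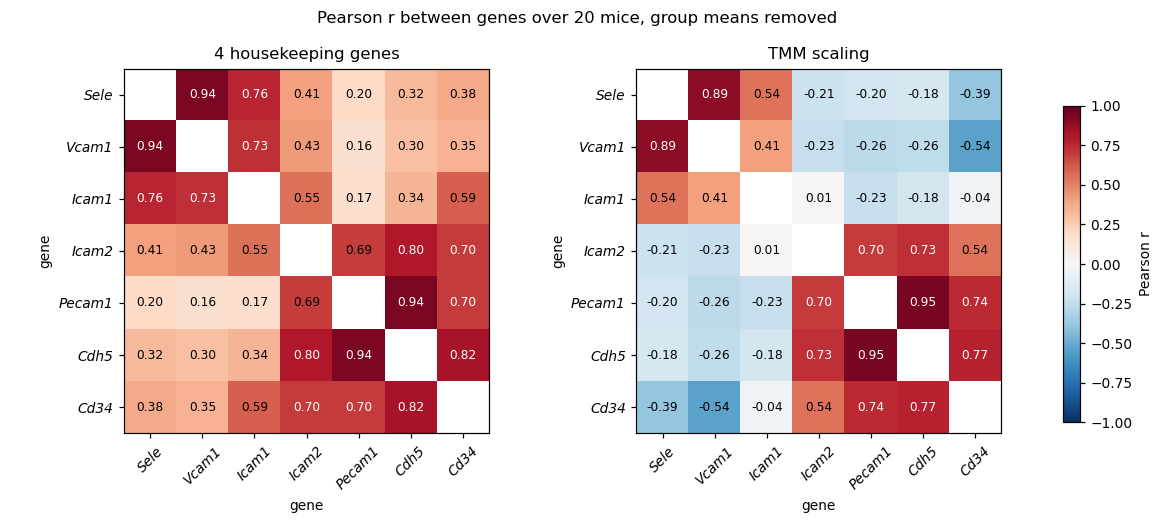
Pearson r of log2(scaled count + 1) between pairs of the 7 genes (both axes) over 20 mice after removal of group means, with the scaling by 4 housekeeping genes on the left and TMM on the right; the colour gives r from -1 to 1. The pairs within Sele, Vcam1 and Icam1 and within the other 4 genes are positive in each panel, and pairs across the sets are weaker or negative.

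Other genes most like each member over the 20 mice differed by set in the same way. Sele was closest to Ccl7 (r = 0.96), Ccl19 (0.96) and Relb (0.96), and Vcam1 to Ccl7 (0.96), Ccl19 (0.96) and Nod2 (0.96), where Ccl7 and Ccl19 encode chemokines and Relb an NF-κB subunit. Icam1 was closest to Myd88 (0.96), the adaptor of Toll-like and IL-1 receptors, Stat3 (0.95) and Nfkb1 (0.94). Cdh5 was closest to Tcf4 (0.91), Itgb1 (0.90) and Zeb1 (0.87), and Pecam1 to Itgb1 (0.86), Zeb1 (0.84) and Itga6 (0.84). Icam2 was closest to Tcf4 (0.84), Cd97 (0.82) and App (0.78), and Cd34 to Tal1 (0.91), C7 (0.86) and Itgb1 (0.86). These are the 3 highest of 351 other tested genes for each member and are a description. Unlike the r between members above, they keep the differences between groups. With group means removed, the same pairs ran from 0.76 (Icam2 and App) to 0.945 (Vcam1 and Ccl7). Under TMM, with group differences kept, they ran from 0.71 (Icam1 and Stat3) to 0.96 (Cdh5 and Tcf4).

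Most of the tested inducers and NF-κB genes were higher after HDE as well. Of 19 listed on the panel 15 were tested, and 11 were higher and 0 lower, where 42.5% of all tested genes were higher, with a median log2 fold change of 2.07 against 0.47 over all tested genes. Il1b rose by 4.92 (SE 0.61), Tnf by 3.64 (SE 0.54), Tnfaip3 by 3.14 (SE 0.43) and Nfkbia by 2.49 (SE 0.36), the last 2 encoding inhibitors of NF-κB that NF-κB itself induces. Of 10 leukocyte counter-receptors on the panel 9 were tested and 3 were higher, a smaller share than the 42.5% of all tested genes. Among the 3 were Cd44 (1.65, adjusted p = 2.11e-04), which binds E-selectin on neutrophils, and Itgam (1.42, adjusted p = 9.33e-04), the Mac-1 chain that binds Icam1. Itgal, the LFA-1 chain, had 0.46 (adjusted p = 0.0760), and the median of the list was 0.46. Of 4 tested genes among 5 other adhesion molecules on the panel, Cd99 was higher (0.81, adjusted p = 0.0389) and Icam4 had 1.02 (adjusted p = 0.0694).

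The counts of leukocyte markers called in the same comparison are to be read against the 42.5% of all tested genes that were higher and the 5.03% that were lower. Of 6 tested neutrophil markers Csf3r, Cxcr2, S100a8, S100a9 and Itgam were higher, and the summed level over 8 probes was 875.6 to 60530 scaled counts in HDE mice and 1493 to 4934 in saline mice. Of 6 macrophage markers Cd14, Msr1 and Marco were higher, and the rest were not called, with log2 fold changes of -0.17 to 0.19. The sums were 982.1 to 12440 in HDE mice and 1221 to 1743 in saline mice. Cd14 weighed most in them, with a mean of 4976 in HDE mice and 310.5 in saline mice. Of 4 tested B cell markers Cd79b and Ms4a1 were lower. None of 2 platelet and 4 thymocyte markers was called, while 2 of 3 epithelial markers (Pigr and Cfb) were higher, and of 6 T cell markers only Cd3eap was, which encodes a subunit of RNA polymerase I. The part of these cells in the levels of Sele, Vcam1 and Icam1 was not tested. Without mice 3 and 6 of the control diet with HDE, Sele had 3.12, Vcam1 1.91 and Icam1 1.55 on the log2 scale.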

How the data were processed

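RNA of randomly chosen left lungs was hybridized to the NanoString mouse Immunology panel and read on an nCounter Sprint profiler. The 20 lungs used here are those the authors kept because they passed normalization, and other lungs of the study were dropped at that step. The authors exported raw counts per probe and lane, which they deposited without subtracting background. The normalized table the authors deposited, a signal per probe, holds those raw counts times 1 factor per lane from Oaz1, Ppia, Rpl19 and Eef1g. Its values equalled the scaled counts used here times 1.18 (largest relative deviation 9.43e-05 for raw counts of 100 or more). The panel held 547 endogenous, 14 housekeeping, 8 negative-control and 6 positive-control probes. No 2 of the 190 lane pairs matched within counting noise (lowest chi-square per degree of freedom 7.7).

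Groups came from the sample labels. The main tool was edgeR 4.0.16 in R 4.3.3 (quasi-likelihood test, lane factors from the 4 housekeeping genes). A gene was tested where its scaled counts averaged at least 82 in the mice compared (lanes rescaled to those mice), with Benjamini-Hochberg adjustment over all such genes and a threshold of 0.05. SE is the log2 fold change divided by the square root of the F statistic. Exposure and diet over 20 mice came from an additive model, the interaction and the contrasts within a diet or exposure from a 4-group model, and diet over 13 HDE mice from those mice. The alternatives were TMM, all 14 housekeeping probes, DESeq2 1.42.0, limma 3.58.1 on log2(normalized value + 1), background subtraction (negative-control mean plus 2 SD, floor of 1), other filters, run and each mouse left out. Run as a block without mouse 6, run 1 alone with the genes that passed over 20 mice and the letters GGANATTCC were added after seeing the data. Lane totals limit precision, and replicate numbers only name mice.

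The members, the gene lists and the tests were chosen with earlier results of these data known. Named beside the 7 members are the 3 tested genes most correlated with each over 20 mice and, from each list used, up to 4 genes with the smallest p for exposure. Single genes were also tested by two-sided exact permutation of exposure within diets. A gene of the counter-receptor list is counted but not reported by name here.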

Additional observations from a re-analysis of the deposited data

Results flagged for a closer look

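Of 21 groups of 4 to 7 mice checked for a single distant value over the 7 genes, 1 was marked, about as many as chance gives (1 in 20). Icam2 was 2474 scaled counts in mouse 1 of the control diet with saline, and the nearest other mouse of that group had 1466. The gap was 0.936 of the range of the group, above the 95% critical value of Dixon's test for 4 mice. The value is the highest Icam2 level of all 20 mice.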

How the results depend on the processing

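Over 20 mice, Sele was called higher under all 31 alternatives in which it was tested (log2 fold change 2.23 to 4.13), Vcam1 in 32 of 33 and Icam1 in 33 of 34, and no value changed sign past the test. In what follows, brackets hold the number of all tested genes called in the same direction. Of the 7 genes 3 were higher. With 82 counts required in every mouse, which leaves 5 members tested and drops Sele and Vcam1, 1 was (87 of 210). With background subtracted 2 were (150 of 308), and within run 1 alone 2 were (130 of 304), Sele being untested in both. Within run 2 alone 1 was (26 of 384). None was lower, except 1 (Icam2) with 14 housekeeping probes (26 of 358), 4 with TMM (94 of 358) and 4 with DESeq2 on its own size factors (94 of 358). With each mouse left out 0 to 1 was lower. The 1 was Icam2 without mouse 3 of the DHA diet with HDE (-0.58, edgeR adjusted p = 0.0342), where 18 of 360 tested genes were lower. On the DHA diet 3 were higher, as were 109 of all 358 tested genes. With 82 counts in every mouse 1 was (69 of 210). With background subtracted 2 were (125 of 308), and within run 1 alone 2 were (90 of 304). Within run 2 alone 0 were (0 of 384). With each mouse left out 0 to 3 were higher. Without mouse 3 of the DHA diet with saline 0 were (46 of 352), and without mouse 1 of that group 2 were (60 of 357). There 0 were lower, 2 with TMM (64 of 358) and 2 with DESeq2 on its own size factors (62 of 358). On the control diet 2 were higher, as were 90 of all 358 tested genes. With 82 counts in every mouse 0 were (38 of 210), within run 1 alone 0 (51 of 304) and within run 2 alone 0 (0 of 384). With TMM 1 was (60 of 358), with limma 1 (41 of 358) and with background subtracted 1 (94 of 308, Sele is then not tested). With run as a block 3 were (114 of 358), and without mice 3 and 6 of the control diet with HDE 3 were (132 of 345). With each mouse left out 0 to 3 were higher. That count was 0 without mouse 3 (34 of 358) or mouse 4 (33 of 355) of the control diet with saline. It was 1 without mouse 2 of that group (57 of 358). It was also 1 without mouse 1 (70 of 356), 3 (67 of 350) or 4 (61 of 355) of the control diet with HDE. There 0 were lower, 1 with TMM (14 of 358) and 2 with DESeq2 on its own size factors (24 of 358). The cause of these moves was not tested where none is given. No diet comparison and no interaction called any of the 7 genes under any alternative. By exact permutation within diets (25200 arrangements, two-sided, unadjusted), p was 5.56e-04 for Sele, 0.00266 for Vcam1, 0.00492 for Icam1, 0.0407 for Icam2, 0.294 for Pecam1, 0.221 for Cdh5 and 0.662 for Cd34. No paired analysis was possible because the labels give no replicate numbers. Sele counts near the negative controls and 3 or 4 saline mice per diet limit precision.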
